A study of Homo sapiens with 6 samples.

Results

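The integrin and laminin genes of LNCaP cells were measured by RNA sequencing with and without knockdown of MEP50, the WD-repeat cofactor of the arginine methyltransferase PRMT5, which is encoded by WDR77. Members were chosen by a rule on gene names, with earlier results of these data known. The rule took integrin alpha chains, integrin beta chains and laminin alpha, beta and gamma chains on assembled chromosomes. The rule found 38 of the 63299 genes in the count table, made up of 18 integrin alpha, 8 integrin beta and 12 laminin genes. LNCaP is an established human prostate cancer line that responds to androgen.

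The knockdown group was 3 libraries from LNCaP cells given doxycycline, which induces a short hairpin RNA against MEP50. The control group was 3 libraries from such cells without doxycycline. No library analysed here had doxycycline without the hairpin, so the drug and the knockdown cannot be told apart. No library was labelled with a non-targeting or other hairpin. Effects of the hairpin on other RNAs therefore cannot be told apart from the loss of MEP50. The labels do not say whether the line was 1 clone or give the dose, the time or the hairpin. Libraries held 18568002 to 36234784 counts on genes. WDR77 fell from 44.4 ± 6.73 to 13.9 ± 1.16 CPM, the counts scaled to a common library size, with no overlap between groups (log2 fold change -1.67, adjusted p 0.00131). Every ± here is the SD over 3 libraries. A positive log2 fold change means a higher level in knockdown. SE is its standard error, adjusted p values are Benjamini-Hochberg values of edgeR's quasi-likelihood test over 21101 genes, and "called" means an adjusted p under 0.05. All 9 luminal prostate markers examined reached 1 CPM, while 0 of 4 basal and 0 of 5 leukocyte markers did. The summed luminal markers were 4000 to 4634 CPM in knockdown and 6816 to 7806 CPM in control libraries. Of 4 endothelial markers VWF alone reached 1 CPM, and KDR had 0 reads. Of 6 fibroblast and smooth muscle markers 3 did, COL1A1, COL3A1 and ACTA2, and all 6 summed to 15.3 to 21.3 CPM in knockdown and 9.89 to 17.7 CPM in control libraries. The part of any of these in the results below was not tested.

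Integrins are cell surface receptors made of 1 alpha and 1 beta chain. The pair decides which matrix protein is bound, and the tails inside the cell connect to actin through talin, kindlin and paxillin. Laminins are secreted trimers of an alpha, a beta and a gamma chain that build the basement membrane. In the prostate, basal cells hold on to this membrane through laminin-binding integrins.

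The 2 calls in the family were both falls. ITGA1, the alpha chain of a collagen receptor, fell 2.30-fold, and LAMC1, the gamma chain of most laminin trimers, fell 1.37-fold. Of the 27 members with enough reads to test, 0 were called higher and 2 lower, where 2.72% of all tested genes were called higher and 4.88% lower. At an unadjusted p under 0.05, 3 were higher and 5 lower, where 10.4% and 14.3% of all tested genes were. DESeq2 and limma-voom each called 1 higher, ITGB8. Libraries of the same replicate number, a pair here, deviated from their group means in similar ways. With the number as a block 2 members were called higher (ITGA2 and ITGB8) and 5 lower (ITGA1, ITGA5, ITGAE, ITGB7 and LAMC1). The block called 11.2% of all genes higher and 14.9% lower, against 7.41% and 18.5% of the tested members, so these shares were near the background. The median log2 fold change was -0.02 over the members and 0.00 over all tested genes, and 19 of the 27 members were within 0.5 of no change, as were 15090 of the 21101 genes. In bulk RNA, fewer expressing cells and less RNA per cell cannot be told apart.

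**Figure D1:**
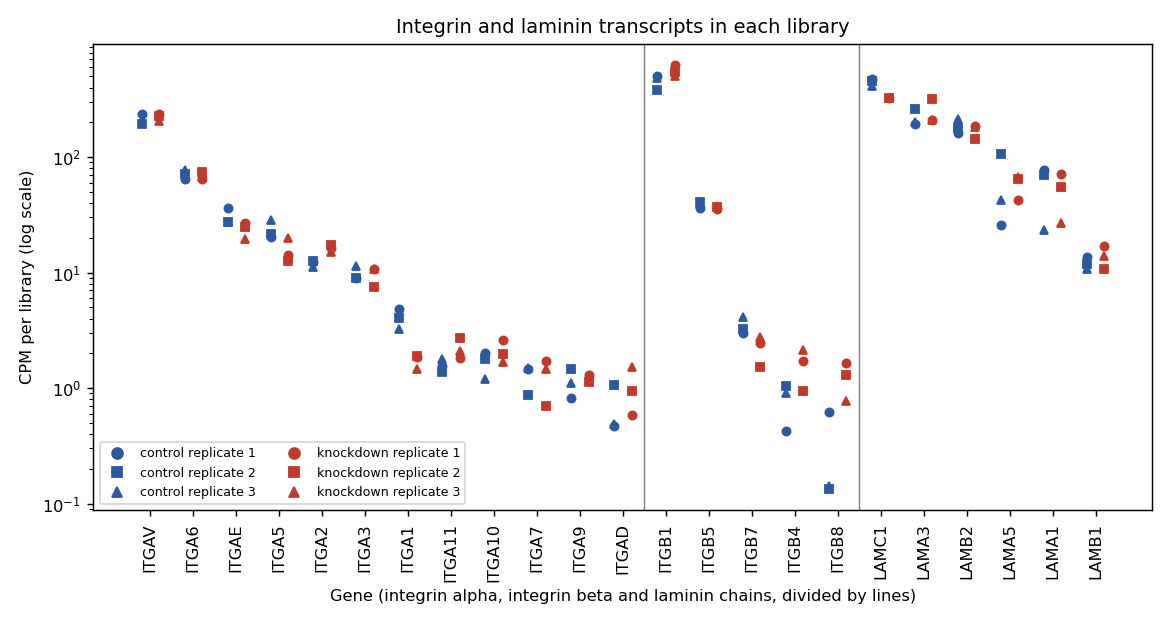
CPM on a log axis in each of the 6 libraries for the 23 members that averaged at least 1 CPM in a group, with control in blue, knockdown in red and 1 symbol per replicate number. ITGB1 ranged from 382 to 624 CPM and LAMC1 from 324 to 470 CPM, the red points of ITGA1 and LAMC1 lie below all blue ones, and those of ITGB8 above.

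**Figure D2:**
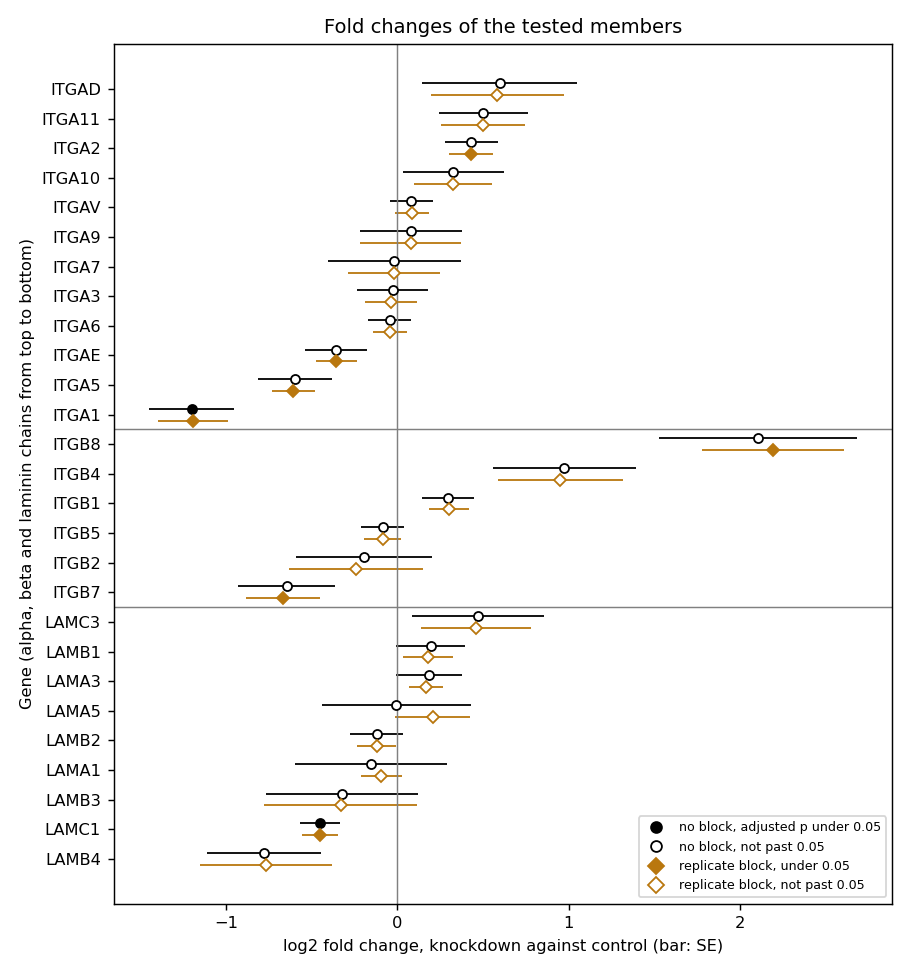
Log2 fold change and SE of the 27 tested members without the block (black circles) and with the replicate number as a block (brown diamonds), filled where the adjusted p was under 0.05. ITGA1 and LAMC1 are filled in both fits, and ITGA2, ITGA5, ITGAE, ITGB7 and ITGB8 with the block only.

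The repertoire was narrow at the level of RNA. Levels of different genes are compared as CPM per kilobase of exon. In control cells the highest members were ITGB1, the beta chain shared by most matrix receptors (75.8 ± 10.8 CPM per kilobase), and LAMC1 (52.9 ± 3.79). LAMB2, a laminin beta chain (26.8 ± 4.03), and ITGAV, the alpha chain of the vitronectin receptors (25.6 ± 2.79), came next and did not differ beyond their spread. LAMA3 followed at 16.0 ± 2.72 and ITGA6, the main laminin receptor alpha chain, at 10.9 ± 0.95 CPM per kilobase. ITGB5 (6.03 ± 0.37), ITGAE (4.56 ± 0.78), LAMA5 (4.07 ± 2.98), LAMA1 (3.57 ± 1.84) and ITGA5 (3.09 ± 0.59) lay below, and the spreads of LAMA5 and LAMA1 covered both ITGAE and ITGA5. ITGA2 (1.52 ± 0.10) and LAMB1 (1.48 ± 0.18) were the only other members above 1 CPM per kilobase, and ITGA3 followed at 1.00 ± 0.15.

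Few chains made up most of each class. ITGB1 was 91.4 ± 1.6% of the summed beta chain level in control and 93.3 ± 0.82% in knockdown libraries, and ITGB5 was 7.39 ± 1.42% and 5.74 ± 0.72%. ITGAV and ITGA6 were 53.4 ± 3.00% and 22.8 ± 2.70% of the alpha chain sum in control, and 56.8 ± 1.74% and 22.2 ± 1.93% in knockdown. Summed alpha chains were 47.9 ± 2.82 CPM per kilobase in control and 47.7 ± 2.01 in knockdown. Summed beta chains were 82.9 ± 10.5 and 99.6 ± 9.84 CPM per kilobase. These sums and shares are descriptions without a test.

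Of 24 textbook integrin pairs, 14 had both chains at a mean of 1 CPM or more in at least 1 group. Among them, ITGA6 with ITGB4 and ITGAV with ITGB8 reached this level in knockdown only, since ITGB4 and ITGB8 averaged under 1 CPM in control. The leukocyte chains ITGAL, ITGAM, ITGAX and ITGB2, the platelet chain ITGA2B, ITGB3, ITGB6, ITGA8 and ITGA4 were all under 1 CPM in both groups. ITGA4 had 0 reads in all knockdown libraries, which allows up to 0.0399 CPM over the group, and 1 read in the control libraries. All these except ITGB2 had too few reads to test, as did LAMA2 and LAMA4. The highest count of the 11 untested members in any library was 15.

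Of the collagen receptor alpha chains, ITGA1 fell, and ITGA2, ITGA10 and ITGA11 were above control in every pair. ITGA1 (ENSG00000213949.8, chromosome 5, 52787896 to 52959210, hg38, plus strand) was at 1.87, 1.89 and 1.47 CPM in knockdown replicates 1 to 3 and at 4.85, 4.03 and 3.23 CPM in the control libraries. Every knockdown library was below every control library, and each pair differed in the same direction. This was a log2 fold change of -1.20 (SE 0.25, adjusted p 0.0230). That call was lost without control replicate 1, knockdown replicate 2 or knockdown replicate 3 (adjusted p 0.0756 to 0.0814, log2 fold changes -1.27 to -1.01). PELO, a ribosome rescue factor whose gene lies inside ITGA1 on the same strand and shares 475 of the 18566 exon bases of ITGA1, was at 93.6 ± 6.54 CPM in knockdown and 106 ± 10.8 in control (adjusted p 0.413).

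ITGA2 (ENSG00000164171.10, chromosome 5, 52989326 to 53094779), the neighbouring collagen receptor gene, was at 16.3, 17.4 and 14.9 CPM in knockdown and 12.3, 12.7 and 11.1 CPM in control libraries. The groups did not overlap, and the log2 fold change of 0.43 (SE 0.15) was not called without the block (adjusted p 0.120) and was with it (0.0259). ITGA11 was at 1.82, 2.70 and 2.11 CPM in knockdown against 1.55, 1.37 and 1.80 in control, also without overlap, and was called in neither fit (log2 0.50, SE 0.26, adjusted p 0.271). ITGA10 was at 2.10 ± 0.48 and 1.67 ± 0.42 CPM, with overlapping groups. The difference between ITGA1 and its relatives was not tested.

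Laminin receptor alpha chains stayed close to control. ITGA6 was at 64.3, 74.9 and 67.8 CPM in knockdown and 65.0, 71.0 and 77.4 CPM in control libraries (log2 -0.04, SE 0.13, adjusted p 0.862). ITGA3, which binds laminins with LAMA3 or LAMA5, was at 9.66 ± 1.88 and 9.80 ± 1.45 CPM. ITGA7, better known from muscle, was at 1.29 ± 0.53 and 1.27 ± 0.35 CPM (log2 -0.02, SE 0.39). In all 3 the groups overlapped, and 0 of 3 were called in either fit, with 0 at an unadjusted p under 0.05. Of all tested genes 2.72% were called higher and 4.88% lower (11.2% and 14.9% with the block). At an unadjusted p under 0.05 the shares were 10.4% and 14.3%, so a count of 0 among 3 genes says little.

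Among receptor chains that bind the RGD sequence of fibronectin and vitronectin, ITGA5 was below control and ITGAV overlapped it. The difference between them was not tested. ITGA5, the fibronectin receptor chain (ENSG00000161638.10, chromosome 12, 54395261 to 54419460), was at 14.1, 12.5 and 19.9 CPM in knockdown and 20.2, 21.6 and 28.5 CPM in control libraries. All knockdown libraries were lower, and replicate 3 was the highest in both groups. The log2 fold change was -0.60 (SE 0.22, adjusted p 0.127), called with the block (0.00348). ITGAV was at 237, 225 and 206 CPM against 236, 191 and 204 CPM, with overlapping groups (log2 0.08, SE 0.13, adjusted p 0.736). ITGA9, a tenascin receptor chain outside the RGD-binding class, was at 1.20 ± 0.08 and 1.13 ± 0.33 CPM.

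ITGAE, known as CD103 on lymphocytes that bind E-cadherin, was the third alpha chain per kilobase here. It was at 27.0, 24.6 and 19.5 CPM in knockdown and 36.4, 27.3 and 27.5 CPM in control, lower in all pairs, with a call in the block fit only (log2 -0.36, adjusted p 0.258, with the block 0.0445). GSG2, which encodes the mitotic histone kinase haspin, shares 427 of the 6657 exon bases of ITGAE on the other strand. GSG2 fell from 19.6 ± 7.68 CPM in control to 6.21 ± 1.99 CPM (log2 -1.66, adjusted p 0.0211). Leaving out knockdown replicate 2 or 3 ended that call (up to 0.0882). The strand setting of the counting is not given in the sources used here, so reads in the shared bases cannot be assigned to either gene, and their part in the ITGAE values was not tested. ITGAD, a leukocyte chain, was at 1.02 ± 0.47 and 0.67 ± 0.34 CPM with overlapping groups.

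ITGAM, or CD11b of myeloid cells, had 6, 15 and 4 reads in knockdown and 0, 2 and 1 in control libraries. It did not pass the filter, and without a filter it was called higher (log2 3.08, adjusted p 0.00947), where 3.25% of 41091 genes were. The leukocyte marker PTPRC had 1 read in knockdown and 1 in control libraries. LYZ, lysozyme, had 18, 41 and 14 against 3, 4 and 5 reads, and the 5 leukocyte markers summed to 0.687 to 1.27 CPM in knockdown and 0.233 to 0.400 CPM in control libraries. Their part in the ITGAM reads was not tested.

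Of the 6 tested beta chains 0 were called without the block, beside 2.72% of all tested genes called higher and 4.88% lower. With the block 1 was higher and 1 lower (16.7% each, beside 11.2% and 14.9%). ITGB1 (ENSG00000150093.18, chromosome 10, 32900319 to 33005792) was at 624, 548 and 506 CPM in knockdown and 504, 382 and 481 CPM in control libraries. The groups did not overlap but nearly met, and the log2 fold change of 0.30 (SE 0.15) was called in neither fit (adjusted p 0.261, with the block 0.0754). Its pseudogene ITGB1P1 was at 1.94 ± 0.48 and 1.27 ± 0.07 CPM, and reads of near-identical copies can be split. ITGB5, which pairs with ITGAV, was at 35.3, 36.9 and 37.5 CPM against 36.2, 41.0 and 39.3 CPM (log2 -0.09, SE 0.12), with overlapping groups.

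ITGB8, which with ITGAV activates latent TGF-beta (ENSG00000105855.9, chromosome 7, 20330702 to 20415754), had the largest fold change of the tested members. It was at 1.66, 1.30 and 0.778 CPM in knockdown, from 31, 48 and 17 reads, and at 0.621, 0.133 and 0.143 CPM in control libraries, from 16, 4 and 5 reads. Each knockdown library was above every control library, the nearest being knockdown replicate 3 and control replicate 1. The log2 fold change was 2.11 (SE 0.58, adjusted p 0.0584). The block called it higher (adjusted p 0.00188), as did DESeq2 (0.0125), limma-voom (0.0372), upper-quartile scaling (0.0465), no low count filter (7.7e-05) and the fit without control replicate 1 (0.0139, log2 3.16). RLE scaling did not (0.0551), and the stricter filter removed it. Without any of the other libraries the adjusted p was up to 0.170.

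ITGB7, the partner of ITGAE, was at 2.46, 1.51 and 2.75 CPM in knockdown and 3.03, 3.23 and 4.14 CPM in control, lower in every pair (log2 -0.65, SE 0.28, adjusted p 0.193, with the block 0.0389). ZNF740, a zinc finger gene on the other strand, shares 1886 of its 4481 exon bases and was at 74.1 ± 6.25 and 78.5 ± 9.84 CPM. ITGB4, which pairs with ITGA6 in hemidesmosomes, was at 1.71, 0.946 and 2.15 CPM against 0.427, 1.03 and 0.913 CPM. The groups overlapped through knockdown replicate 2, and the log2 of 0.98 (SE 0.42) was called in neither fit (adjusted p 0.185). ITGB2, the leukocyte beta chain, was at 0.44 ± 0.12 and 0.51 ± 0.16 CPM with overlapping groups (log2 -0.19).

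**Figure D3:**
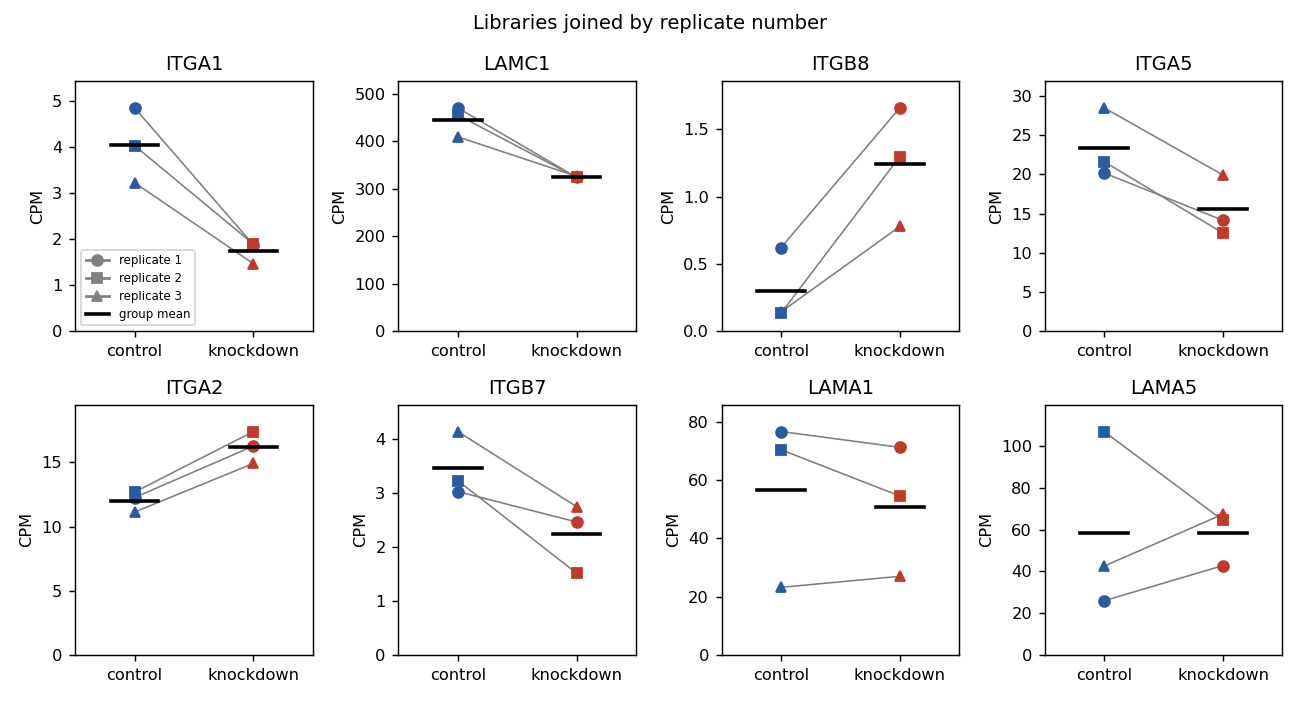
CPM of 8 members in control and knockdown libraries, with lines joining libraries of the same replicate number and bars at the group means. All 3 lines fall for ITGA1, LAMC1, ITGA5 and ITGB7 and rise for ITGB8 and ITGA2, while LAMA1 and LAMA5 differ more between replicate numbers than between groups.

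LAMC1 was the laminin chain that fell. LAMC1 (ENSG00000135862.5, chromosome 1, 183023460 to 183145592, plus strand) was at 324, 324 and 326 CPM in knockdown and 470, 455 and 409 CPM in control libraries. The knockdown libraries lay within 1.01-fold of each other and below all control libraries. The log2 fold change was -0.45 (SE 0.12, adjusted p 0.0487, with the block 0.0069). The call was lost without any 1 of the 6 libraries (adjusted p 0.0634 to 0.184), with log2 fold changes of -0.52 to -0.37. It was also lost with RLE scaling (0.0640), upper-quartile scaling (0.105), no low count filter (0.0680) and the stricter filter (0.0644), and kept by DESeq2 (0.0304) and limma-voom (0.0386). Since LAMC1 was 99.8 ± 0.08% of the gamma chain sum in control, that sum was 53.0 ± 3.77 CPM per kilobase in control and 38.8 ± 0.20 in knockdown. LAMC3 was at 0.89 ± 0.27 and 0.65 ± 0.23 CPM, with overlapping groups.

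LAMA1 and LAMA5 differed between libraries of a group more than between groups. LAMA3 was at 211, 316 and 211 CPM in knockdown and 192, 259 and 200 CPM in control libraries, so replicate 2 was the highest in both groups (log2 0.18, SE 0.19, adjusted p 0.597). LAMA1 was at 71.2, 54.5 and 27.0 CPM against 76.6, 70.4 and 23.2 CPM, and replicate 3 was the lowest in both groups. LAMA1 varied 2.63-fold within knockdown and 3.30-fold within control, while its log2 fold change was -0.16 (SE 0.44). LAMA5 was at 42.8, 64.4 and 67.4 CPM in knockdown and 26.0, 107 and 42.5 CPM in control, a 4.11-fold range within control and the widest of the 23 members at 1 CPM or more. Control replicate 2 was also the highest library for its neighbour ADRM1 (109 CPM, against 54.1 and 59.6 in the other control libraries) and for LAMA5-AS1 (15.2 CPM, against 4.62 and 8.28). ADRM1 and LAMA5-AS1 share 244 and 118 of the 14361 exon bases of LAMA5 on the other strand. Without control replicate 2 the log2 fold change of LAMA5 was 0.75 (adjusted p 0.115), and with all libraries it was -0.01.

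Laminin beta chains overlapped between groups where they were abundant. LAMB2 was at 184, 143 and 181 CPM in knockdown and 161, 177 and 215 CPM in control libraries (log2 -0.12, SE 0.15), and LAMB1 at 16.8, 10.8 and 13.9 against 13.7, 11.8 and 10.8 CPM (log2 0.19, SE 0.20). LAMB2 was 94.0 ± 1.40% of the beta chain sum in control and 93.1 ± 0.50% in knockdown. LAMB4 was at 0.375, 0.324 and 0.412 CPM against 0.698, 0.599 and 0.599 CPM, without overlap, and was not called (log2 -0.78, adjusted p 0.184). LAMB3 was at 0.35 ± 0.19 and 0.45 ± 0.04 CPM.

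Of 14 textbook laminin trimers, 6 had all chains at 1 CPM or more in a group. They are LAMA1, LAMA3 or LAMA5, each with LAMB1 or LAMB2, and all have LAMC1.

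Group ranges without overlap were found for 4 tested members that were higher (ITGA2, ITGA11, ITGB1 and ITGB8) and 6 that were lower (ITGA1, ITGA5, ITGAE, ITGB7, LAMB4 and LAMC1). These are 14.8% and 22.2% of the tested members, where 13.4% and 17.0% of all tested genes were so separated. The members' shares were close to those of other genes.

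Partners of the integrins were counted on 3 lists, which were chosen with earlier results of these data known. The shares of all 3 lists beside those of all tested genes are therefore descriptions and no independent evidence. Among 40 matrix ligands and basement membrane genes, 29 were tested, 1 was called higher and 0 lower in edgeR (5 and 2 at an unadjusted p under 0.05), and with the block 8 were higher and 2 lower. These are 3.45% and 0% without the block, beside 2.72% and 4.88% of all tested genes, and 27.6% and 6.90% with it, beside 11.2% and 14.9%. DESeq2 called 3 of them higher and limma-voom 2, and neither called any lower. The list's median log2 fold change was 0.30, beside 0.00 over all tested genes. NPNT, nephronectin, the ligand of the ITGA8 receptor, rose from 2.25, 1.37 and 1.03 CPM in control to 8.03, 6.41 and 4.26 CPM in knockdown libraries (log2 2.02, SE 0.35, adjusted p 0.0114) and was called whichever library was left out. ITGA8 itself was at 0.202 ± 0.036 CPM in knockdown and 0.160 ± 0.161 CPM in control. COL4A5, a basement membrane collagen chain, was at 310, 274 and 236 CPM against 212, 176 and 175 CPM, without overlap (log2 0.54, adjusted p 0.0525, with the block 0.00171). LTBP1, which holds latent TGF-beta in the matrix, was at 1.08 ± 0.24 and 2.10 ± 0.40 CPM (log2 -0.98, adjusted p 0.0732, with the block 0.0115).

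Of 45 genes of the adhesion complex inside the cell 43 were tested, and 1 was called higher and 6 lower (2.33% and 14.0%, beside 2.72% and 4.88% of all tested genes). The block fit called 6 and 11 (14.0% and 25.6%, beside 11.2% and 14.9%). Log2 fold changes were positive for 20 and negative for 23, with a median of -0.05. PXN, which encodes the adaptor paxillin, fell from 37.2, 62.9 and 42.4 CPM to 16.3, 17.4 and 22.2 CPM (log2 -1.35, SE 0.22, adjusted p 0.00936). TNS3, a tensin that binds integrin beta tails, fell from 4.79 ± 1.93 to 1.14 ± 0.42 CPM (log2 -2.06, SE 0.39, adjusted p 0.0172). ITGB1BP1, which binds the ITGB1 tail, fell by a log2 of 0.65, the kinase-like scaffold ILK by 0.64, the hemidesmosome and cytoskeleton linker DST by 0.54 and the actin crosslinker ACTN4 by 0.68. VASP, an actin elongation factor, rose by 0.59. Leaving out knockdown replicate 2 reduced the 6 falls to 0. The number was 1 when knockdown replicate 3 was left out, 2 for control replicate 1 and 3 for control replicate 3. The VASP call was lost without any 1 library (adjusted p 0.0510 to 0.126), and FLNA, an actin crosslinker, was called higher in its place without control replicate 2. PXN lost its call without knockdown replicate 2 alone (adjusted p 0.0526).

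Of 32 membrane partners 28 were tested, and 2 were called higher and 2 lower (7.14% each, beside 2.72% and 4.88% of all tested genes). With the block 4 were higher and 6 lower (14.3% and 21.4%, beside 11.2% and 14.9%), and the median was -0.01. EMP2, a tetraspan protein, fell from 41.9 ± 6.65 to 14.6 ± 3.30 CPM, lower in every pair and without overlap (log2 -1.52, SE 0.20, adjusted p 0.00437) and was called whichever library was left out. The complement regulator CD46 fell by a log2 of 0.77 (adjusted p 0.0116), and LRP1, an endocytic receptor, rose by 1.20 (0.0190). SDC2, a syndecan proteoglycan, rose from 39.7, 15.2 and 14.0 CPM to 169, 84.9 and 50.2 CPM (log2 2.14, SE 0.50, adjusted p 0.0364), with replicate 1 the highest in both groups. CD46 lost its call without knockdown replicate 2 or 3 and LRP1 without knockdown replicate 3. SDC2 lost it when any library but control replicate 1 or knockdown replicate 3 was left out (adjusted p up to 0.109).

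**Figure D4:**
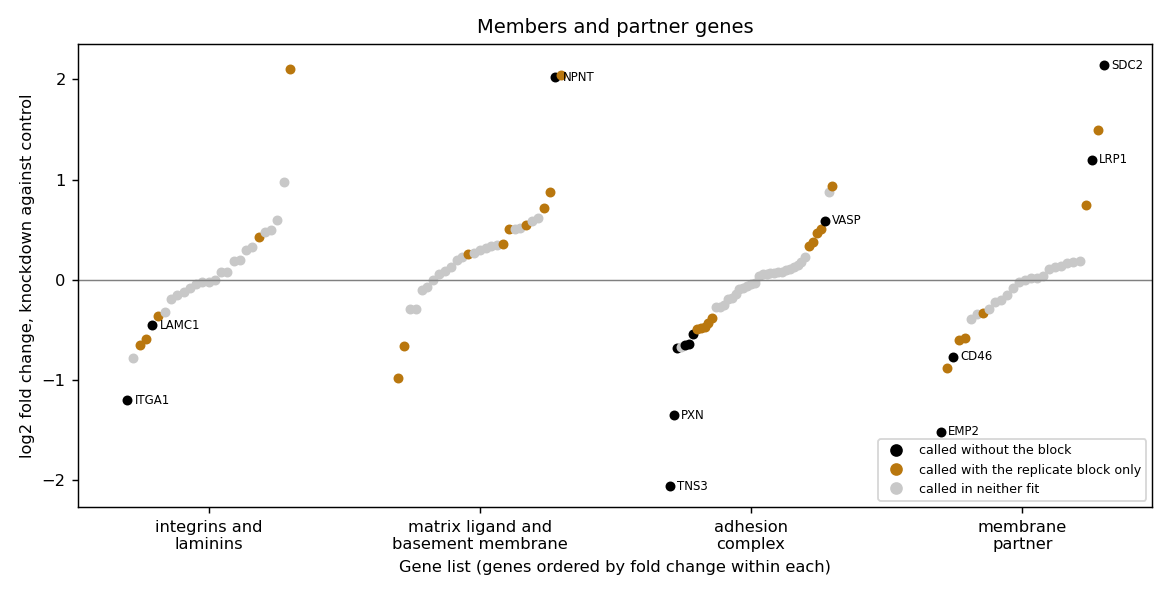
Log2 fold change of each tested gene in the family and in the 3 partner lists, ordered within a list, with genes called without the block in black, with the block only in brown and in neither fit in grey. Called genes are named except the 4 adhesion complex genes that fell by 0.54 to 0.68 on the log2 scale, and NPNT and SDC2 lie near 2 while ITGA1 and LAMC1 are the black points of the family.

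The 3' UTRs were searched for the 7-base word ACTCTGT, a word taken from earlier results of these data. On the transcript strand of GENCODE 29 it was in 38.1% of 895 genes called lower, 18.5% of 399 called higher and 18.7% of 12046 not called, with no test. These shares were not adjusted for 3' UTR length. Since the word was chosen from these data, the shares are no independent evidence about it. Among the tested members 4 of 27 held it (14.8%, beside 20.0% of 13340 tested genes), namely LAMC1, ITGA5, ITGA2 and ITGA11. ITGA1 lacked it in an annotated 3' UTR of up to 6759 bases. Its sites in these 4 members are shown with 8 bases on each side, the word in capitals, since they lie in genes below control (LAMC1, ITGA5) and above it (ITGA2, ITGA11).
LAMC1, chr1:183144361-183144383, plus strand: agaatgacACTCTGTtcactttg
ITGA5, chr12:54395302-54395324, minus strand: ttatttaaACTCTGTtgcaagtg
ITGA2, first site, chr5:53093087-53093109, plus strand: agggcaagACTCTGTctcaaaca
ITGA2, second site, chr5:53093189-53093211, plus strand: ttccttttACTCTGTctcacctc
ITGA11, chr15:68299012-68299034, minus strand: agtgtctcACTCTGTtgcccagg
ITGA2 held the word at 2 sites, and any relation between sites and fold changes was not tested. A match is a description of the sequence and not a site of action.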

How the data were processed

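The authors deposited whole-number read counts per gene for 6 libraries. Per the submitters' processing notes, STAR 2.5, featureCounts of Subread 1.6.5, edgeR 3.20.8 and hg38 were used; strand setting and annotation release are not given in the sources used here. The deposited file also gave the exon length used for CPM per kilobase. From the counts, genes were filtered with filterByExpr, scaled by TMM and tested in edgeR 4.0.16 (R 4.3.3) by a two-sided quasi-likelihood F test, knockdown against control. Alternatives were RLE and upper-quartile scaling, 2 filters, DESeq2 1.42.0, limma-voom (limma 3.58.1), a replicate block and each library left out. The series text calls the replicates biological. Deviations from group means correlated at 0.554, 0.381 and 0.358 between libraries of the same number and -0.39 to 0.06 otherwise. Deviations within a group cancel out, which pushes the other correlations down. Pairing rests on these correlations, not on the labels. Residual degrees of freedom were 4, and 2 with the block.

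The members, lists and word were chosen with earlier results of these data known. Members are named where they are described, and 1 result is not reported here. Of each list, the 3 genes with the smallest p and all called genes are named. Exact permutation of 3 against 3 libraries cannot give p under 0.1, so none was used. Of the members, 20 share exon bases with another gene, and unstranded counting would not separate those on the other strand. GENCODE 29, on the same hg38 build, was used for 3' UTRs alone. CYR61 and CTGF are the file's names for CCN1 and CCN2.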

Additional observations from a re-analysis of the deposited data

How the results depend on the processing

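Calls with no low count filter, the replicate block and upper-quartile scaling were 1336, 2358 and 894 of all genes higher (574 in the report), and 1812 and 3148 lower with the first and second (1029). Leaving out a library gave 168 to 500 higher and 329 to 923 lower. Of the integrin and laminin genes, DESeq2, limma-voom and upper-quartile scaling called 1 higher each, and no filter and the block 2 each. RLE scaling, the stricter filter (1 CPM in 3 libraries) and upper-quartile scaling called 1 lower each, and the block 5. No filter also called 2 lower, but LAMC1 was lost and ITGA5 gained (0.0402). Leaving out a library gave 0 to 1 higher and 0 to 1 lower. Of the matrix list, DESeq2 called 3 higher, limma-voom, the stricter filter and upper-quartile scaling 2 each, no filter 5 and the block 8, with 1 to 3 when a library was left out. No filter called 1 of it lower and the block 2. Of the adhesion complex list, no filter called 2 higher and the block 6, and the block called 11 lower and upper-quartile scaling 3, with 0 to 1 higher and 0 to 5 lower when a library was left out. Of the membrane partners the block called 4 higher and 6 lower, and DESeq2 and no filter 4 lower each, with 1 to 2 higher and 1 to 2 lower when a library was left out. The replicate block changed no other call among the named genes than those given in the report. Upper-quartile scaling moved the median log2 fold change of all genes by 0.12. Members near no change turned sign. Under the stricter filter log2 fold changes were 0.0192 for ITGA3, 0.0031 for ITGA6 and 0.0234 for ITGA7, and under upper-quartile scaling 0.0915, 0.0752 and 0.1015, with 0.035 for ITGB5. LAMA5 was at 0.0057 with DESeq2, 0.0198 with RLE scaling, 0.2215 with limma-voom, 0.008 with no filter, 0.2063 with the block, 0.0533 with the stricter filter and 0.1198 with upper-quartile scaling. With a library left out, log2 fold changes ran from -0.1211 to 0.1318 for ITGA3, -0.1074 to 0.0148 for ITGA6, -0.2825 to 0.3154 for ITGA7, -0.0578 to 0.2861 for ITGA9, -0.0005 to 0.2103 for ITGAV, -0.466 to 0.0663 for ITGB2, -0.5362 to 0.1755 for LAMA1, -0.0376 to 0.3126 for LAMA3 and -0.3029 to 0.7503 for LAMA5. The cause was not tested. Members under 1 CPM rest on few reads, which limits what could be detected.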
